A study of Mus musculus with 12 samples.

Results

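The Notch pathway and Hes genes described here are 10 genes of the deposited table, found by symbol among the 55335 genes listed: the receptors Notch1, Notch2 and Notch3, the ligands Dll1, Dll3 and Jag1, and the nuclear repressors Hes1, Hes5, Hes6 and Hey1. Their levels were measured by single-nucleus RNA sequencing of the forebrain of mice at postnatal day 1, with 8 wild-type (WT) libraries, from 5 males and 3 females, and 4 libraries heterozygous (Het) for MYT1L S710fsX, from 3 males and 1 female. All animals came from the line C57BL/6-Myt1l em1Jdd/J, bred from a Het and a C57BL/6J parent, in which a frameshift alters 1 copy of Myt1l in every cell of a Het animal. Each library came from 1 animal and is named here by genotype, sex and the replicate number of its label. All 12 libraries were barcoded on 1 plate in 1 batch, and only 1 Het library was female. A passage of the study's text exchanges the numbers of WT and Het animals, and another names the prefrontal cortex in place of the forebrain. Genotypes and tissue are those of the labels throughout, and the extent of the tissue is uncertain.

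Notch receptors sit at the cell surface and are cut when a Delta or Jagged ligand on a neighbouring cell binds them. The released intracellular part joins RBPJ in the nucleus and turns on several Hes and Hey genes, whose repressor proteins hold back proneural genes. In the embryonic brain this keeps radial glia as progenitors while their neighbours differentiate, and in vessels it acts between endothelial and mural cells. MYT1L is a zinc finger factor that neurons carry from their birth onwards. The study reports that it mainly represses genes but can also activate them.

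The bases upstream of the RefSeq start of Hes5 and of Hes6 are given 5′ to 3′ on the strand of the gene. They are from the RefSeq promoter table on GRCm38.p6. Hes5 is a direct Notch target in neural progenitors. Hes6 is a Hes gene linked to neuronal differentiation and is not printed as a Notch target. Capitals mark TGGGAA, the core that RBPJ binds, or its reverse complement TTCCCA.
Hes5, chr4:154960673-154960922, plus strand: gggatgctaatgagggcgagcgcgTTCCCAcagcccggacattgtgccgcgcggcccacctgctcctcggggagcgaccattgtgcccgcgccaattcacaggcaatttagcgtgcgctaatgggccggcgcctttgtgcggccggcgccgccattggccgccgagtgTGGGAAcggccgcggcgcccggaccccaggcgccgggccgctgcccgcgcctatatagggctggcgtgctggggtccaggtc
Hes6, chr1:91414039-91414288, minus strand: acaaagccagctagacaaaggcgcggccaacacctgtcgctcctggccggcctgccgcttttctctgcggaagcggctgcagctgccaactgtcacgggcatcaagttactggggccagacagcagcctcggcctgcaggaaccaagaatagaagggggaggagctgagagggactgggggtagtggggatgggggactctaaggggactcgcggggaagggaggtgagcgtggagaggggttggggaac
The Hes5 window held 2 matches, which began 226 and 82 bases before the start, and the Hes6 window held 0. Of 32851 promoter windows of 250 bases in the table, 21.6% held at least 1 match to TGGGAA on either strand. The MYT1-family core AAGTTT was searched in the same way and matched 1 member window, that of Notch2, 9 bases before the start, against 12.8% of all windows. The remaining member windows in the table matched neither motif, and Hes1 and Hey1 had no entry.

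Of 100035 nuclei that passed filters on UMIs, genes and mitochondrial reads, 72824 (72.8%) were placed in 16 classes by marker genes, and each class is called "-like" after its markers. Another 5855 barcodes (5.85%) scored for more than 1 class and were left out. Levels are unique molecular identifiers (UMIs, tags that count captured RNA molecules) assigned to a gene per 1000000 UMIs of the class in a library (CPM), and a library entered a class where it held at least 10 of its nuclei. A level is comparable between classes for 1 gene, and levels of different genes are not compared. In such sums, fewer nuclei with a transcript and less of it per nucleus cannot be told apart. Total UMIs per library ranged from 15439429 to 40784144. The 10 leading genes of each class held no marker of another class. Neurons made up 53140 of the gated nuclei, 33181 excitatory (ExN) and 19066 inhibitory (InhN), the rest Cajal-Retzius-like. The thinnest classes were intermediate progenitor-like with 213 nuclei and mural-like with 287, and WT male 4 held 31 striatal InhN-like nuclei, the fewest of any library in that class.

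The 3 receptors each peaked in a different class outside the neurons. Notch1 (ENSMUSG00000026923.15, chr2:26457903-26516663, minus strand, GRCm38), the main receptor of neural progenitors, stood at 288 ± 74.0 CPM in endothelial-like nuclei and 212 ± 35.4 CPM in astroglia-like nuclei (SD, n = 12 each), the class of radial glia and astrocytes. It stood at 203 ± 86.2 CPM in mural-like (SD, n = 9), 161 ± 25.8 CPM in cycling progenitor-like (SD, n = 12) and 147 ± 113 CPM in intermediate progenitor-like nuclei (SD, n = 10). None of these 5 neighbours in the order differed from the next by more than the SD of the difference within libraries, which is a spread and not a test. Notch1 was higher in endothelial-like than in astroglia-like nuclei in 11 of 12 libraries, by 76.3 ± 89.5 CPM. Across the 7 neuron classes its level ran from 4.04 ± 1.49 CPM in upper-layer ExN-like to 15.0 ± 5.63 CPM in CGE/olfactory InhN-like nuclei (SD, n = 12 each), named for the caudal ganglionic eminence. The CGE/olfactory level exceeded that of InhN-like nuclei of the medial ganglionic eminence (MGE) in 11 of 12 libraries, by 7.96 ± 5.06 CPM.

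Notch2 (ENSMUSG00000027878.11, chr3:98013527-98150361, plus strand), a receptor broadly present in glia and connective tissue, was highest in fibroblast-like nuclei at 339 ± 41.8 CPM (SD, n = 12), followed by choroid/ependymal-like nuclei at 245 ± 100.3 CPM (SD, n = 9) and astroglia-like nuclei at 210.3 ± 39.7 CPM (SD, n = 12). Microglia-like nuclei held 136 ± 33.4 CPM (SD, n = 12). In neuron classes Notch2 ranged from 9.54 CPM in deep-layer ExN-like to 23.8 CPM in CGE/olfactory InhN-like nuclei. Notch3 (ENSMUSG00000038146.8, chr17:32120820-32166852, minus strand), the receptor known for pericytes and vascular smooth muscle, stood at 559.8 ± 176 CPM in mural-like nuclei (SD, n = 9). That was above astroglia-like nuclei, at 154 ± 22.6 CPM, in 9 of 9 libraries. Endothelial-like nuclei held 132 ± 39.3 CPM, below astroglia-like nuclei in 10 of 12 libraries but not by more than the spread. Oligodendrocyte lineage-like nuclei held 7.69 ± 6.74 CPM of Notch3 (SD, n = 12), a level among those of the neuron classes.

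Dll1 and Dll3 had their highest means in progenitor-like and oligodendrocyte lineage-like classes, and Jag1 in vascular and fibroblast-like ones. Dll1 (ENSMUSG00000014773.13, chr17:15367354-15376872, minus strand), the Delta ligand that newborn neurons show to progenitors, stood at 29.5 ± 36.4 CPM in intermediate progenitor-like (SD, n = 10), 23.2 ± 9.56 CPM in oligodendrocyte lineage-like and 17.4 ± 7.36 CPM in cycling progenitor-like nuclei (SD, n = 12 each), with no difference between neighbours beyond the spread. The next class, astroglia-like, held 5.65 ± 2.11 CPM and lay below cycling progenitor-like nuclei in 11 of 12 libraries. Dll3 (ENSMUSG00000003436.11, chr7:28293553-28302238, minus strand), a ligand that acts inside the cell that makes it, had the same leading classes, with 40.6 ± 36.5 CPM in intermediate progenitor-like, 32.8 ± 8.91 CPM in oligodendrocyte lineage-like and 14.5 ± 8.06 CPM in cycling progenitor-like nuclei. For Dll3 the oligodendrocyte lineage-like level was above the cycling one in 12 of 12 libraries. No UMI of Dll1 or Dll3 was found in mural-like nuclei, where 3 counts would have been 6.14 CPM. Limits of this kind cover counting error only. Jag1 (ENSMUSG00000027276.7, chr2:137081456-137116644, minus strand), the Jagged ligand of vessels and progenitors, stood at 114 ± 52.4 CPM in mural-like (SD, n = 9), 97.0 ± 18.7 CPM in endothelial-like and 73.9 ± 27.1 CPM in fibroblast-like nuclei (SD, n = 12 each), none beyond the spread from the next. Cycling progenitor-like nuclei came next at 42.0 ± 16.1 CPM (SD, n = 12), below fibroblast-like nuclei in 10 of 12 libraries. Astroglia-like nuclei held 16.1 ± 6.74 CPM (SD, n = 12). Cajal-Retzius-like nuclei held 19.1 ± 14.8 CPM of Jag1, the highest mean of the neuron classes, and upper-layer ExN-like nuclei 1.10 ± 0.60 CPM.

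Each of the 4 repressors had its own order of classes. Hes5 (ENSMUSG00000048001.7, chr4:154960923-154962371, plus strand), whose upstream bases are printed above, stood at 63.9 ± 22.8 CPM in astroglia-like nuclei and was higher there than in oligodendrocyte lineage-like nuclei, at 27.0 ± 15.6 CPM, in 12 of 12 libraries. Cycling progenitor-like nuclei held 17.0 ± 8.72 CPM, and no UMI was found in intermediate progenitor-like nuclei, where 3 counts would have been 6.97 CPM. Hes1 (ENSMUSG00000022528.8, chr16:30064384-30067796, plus strand), the founding Hes effector, stood at 30.7 ± 50.1 CPM in mural-like and 29.5 ± 13.1 CPM in endothelial-like nuclei, against 11.9 ± 3.38 CPM in astroglia-like nuclei, with no pair of neighbours beyond the spread. The mural-like mean rested on 11 UMIs and 1 WT library at 153.6 CPM, the WT median being 0. Hes1 had 0 UMIs in microglia-like nuclei, where 3 counts would have been 3.14 CPM. Hey1 (ENSMUSG00000040289.8, chr3:8663359-8667256, minus strand), a Notch effector of endothelium, stood at 27.9 ± 9.33 CPM in endothelial-like nuclei and was above astroglia-like nuclei, at 14.2 ± 4.16 CPM, in 11 of 12 libraries. Hes6 (ENSMUSG00000067071.8, chr1:91411483-91414038, minus strand) stood at 37.3 ± 31.3 CPM in intermediate progenitor-like and 22.9 ± 10.9 CPM in cycling progenitor-like nuclei. Next came a neuron class, upper-layer ExN-like at 9.91 ± 1.83 CPM, and its lowest class was striatal InhN-like at 2.84 ± 2.01 CPM.

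**Figure D1:**
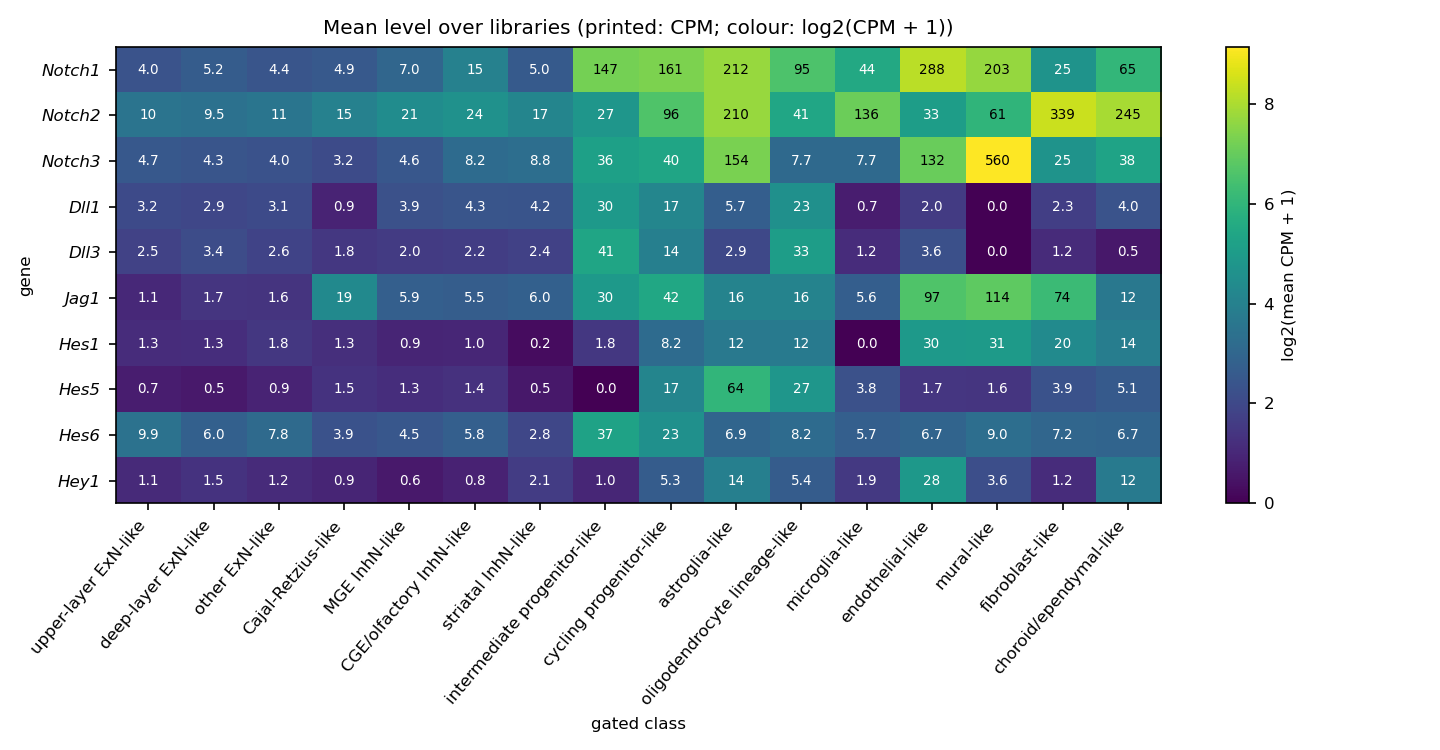
Mean CPM over libraries of each gene (rows) in each gated class (columns), printed in the cells and coloured as log2(CPM + 1). Receptors are brightest in vascular, glial and fibroblast-like classes, and Jag1 in vascular and fibroblast-like classes. Dll1 and Dll3 are brightest in progenitor-like and oligodendrocyte lineage-like classes, Hes6 in progenitor-like classes, and Hes5 in astroglia-like nuclei at 63.9 CPM.

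Class and neuron sums of the same libraries were compared with edgeR's quasi-likelihood test, with the library as a block. A call needed an adjusted p under 0.05 (Benjamini-Hochberg over all genes tested) and a log2 difference of at least 0.2. A gene sparse in neurons was tested only where the class itself held enough counts, so counts of genes called here and below are tilted to higher. Hes1, Hes5 and Hey1 were untested in cycling progenitor-like, intermediate progenitor-like, mural-like and microglia-like nuclei. Hes1 and Hes5 were also untested in endothelial-like nuclei, Hey1 in oligodendrocyte lineage-like nuclei and Jag1 in microglia-like nuclei. Dll1 and Dll3 were untested in intermediate progenitor-like, endothelial-like, mural-like and microglia-like nuclei. In astroglia-like nuclei 8 of the 9 members tested were called higher than in all neurons, where 34.5% of the 13617 genes tested were called higher and 35.6% lower. The largest was Hes5, with a log2 fold change of 5.87 (SE 0.14), followed by Notch1 at 4.97 (SE 0.08) and Notch3 at 4.51 (SE 0.09). Dll1 was called at 0.52 (SE 0.18; edgeR adjusted p = 0.0149), Hes6 was not called at -0.22 (SE 0.16; edgeR adjusted p = 0.233), and Dll3 had too few counts. In cycling progenitor-like nuclei 7 of 7 members tested were called higher, against 27% of 12979 genes, among them Jag1 at 3.29 (SE 0.18), Dll3 at 2.14 (SE 0.27), Dll1 at 2.08 (SE 0.23) and Hes6 at 1.45 (SE 0.21).

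In oligodendrocyte lineage-like nuclei 7 of 9 members tested were called higher (21.4% of 12769 genes), led by Hes5 at 4.79 (SE 0.27), Notch1 at 3.98 (SE 0.13) and Dll3 at 3.62 (SE 0.18), and Notch3 and Hes6 were not called. In endothelial-like nuclei 5 of 6 were called higher (30.4% of 12867 genes), with Notch1 at 5.32 (SE 0.13), Jag1 at 4.41 (SE 0.15), Notch3 at 4.15 (SE 0.14), Hey1 at 4.00 (SE 0.24) and Notch2 at 0.79 (SE 0.18). In mural-like nuclei 4 of 5 were called higher (8.38% of 12292 genes), with Notch3 at 5.99 (SE 0.18). In intermediate progenitor-like nuclei 4 of 5 were called higher (3.37% of 11707 genes), with Hes6 at 1.84 (SE 0.45), and Notch2 was not called at -0.57 (SE 0.59). In microglia-like nuclei 2 of 4 were called higher (15.2% of 12148 genes), Notch2 at 2.73 (SE 0.20) and Notch1 at 2.57 (SE 0.30). No member tested was called lower in any of these 7 classes, and Hes6 was called in the 2 progenitor-like classes only. Members without a UMI in a class, such as Dll1 and Dll3 in mural-like nuclei, were untested there and could not be called lower. The lack of lower calls is thus no result about the members. Of all genes tested, 31.6% were called lower in cycling progenitor-like, 28.2% in oligodendrocyte lineage-like and 37% in endothelial-like nuclei. That share was 23.6% in mural-like, 15.1% in intermediate progenitor-like and 31% in microglia-like nuclei.

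**Figure D2:**
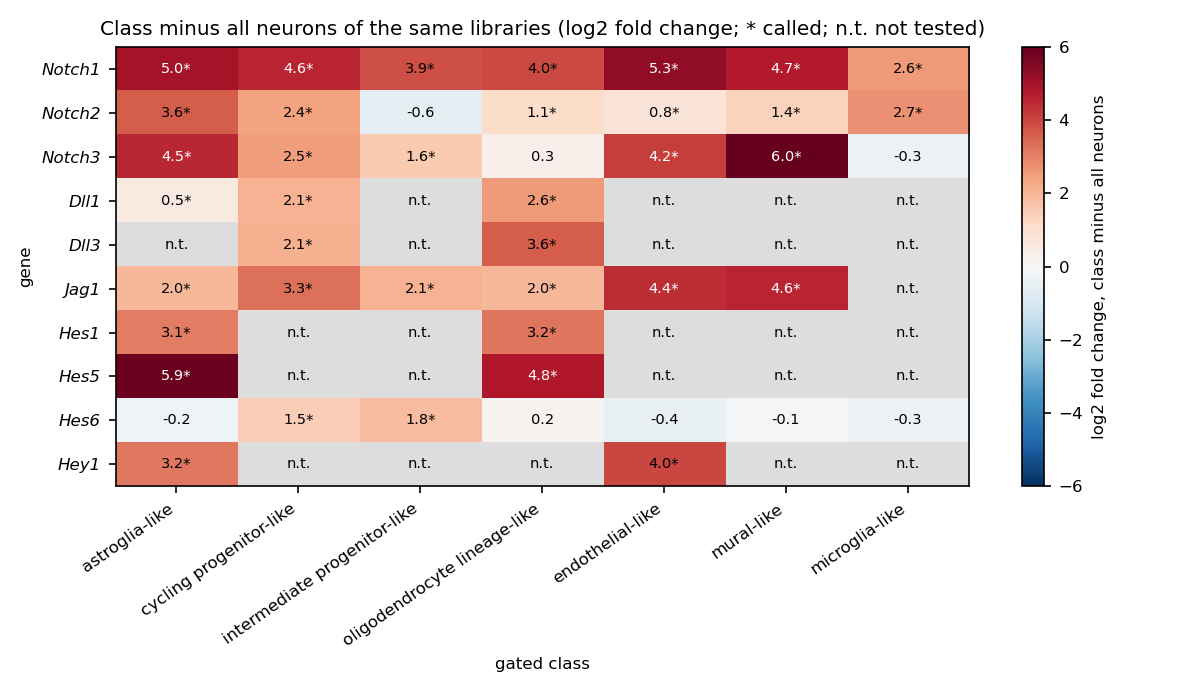
Log2 fold change of each gene (rows) in each class (columns) over all neurons of the same libraries, from edgeR with the library as a block; an asterisk marks a call and n.t. a gene with too few counts to test. Notch1 is called in all 7 classes, from 2.57 to 5.32, while Hes6 lies between -0.43 and 0.15 outside the progenitor-like classes.

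The remaining pathway was read from 69 genes in 7 lists. In astroglia-like nuclei 26 of the 53 tested were called higher than in neurons and 16 lower, against 34.5% and 35.6% of all genes. The other Hes, Hey and partner genes had 7 of 8 tested called higher, including Id3 at 6.07 (SE 0.10) and Id1 at 4.68 (SE 0.19), inhibitors of bHLH factors, and Hey2 at 4.20 (SE 0.16). Lfng, a Fringe that modifies Notch sugars, was called higher at 5.21 (SE 0.20), and Nrarp, a feedback inhibitor induced by Notch, at 4.70 (SE 0.25). Rbpj itself was not called, at 0.16 (SE 0.05), being under the minimum of 0.2. Of the other receptors and ligands, 3 of 3 tested were called lower in astroglia-like nuclei, Dlk2 at -2.32 (SE 0.13), Jag2 at -2.16 (SE 0.11) and Dner, a ligand of Purkinje and other neurons, at -0.31 (SE 0.07). In endothelial-like nuclei 3 of 5 genes of this list were called higher and 2 lower, in oligodendrocyte lineage-like nuclei 1 of 3 higher and 2 lower, and in each of the remaining 4 classes 3 of 3 lower. The share of all genes called lower in these classes, given above, ran from 15.1% in intermediate progenitor-like to 37% in endothelial-like nuclei.

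Levels in neurons were set beside markers of other cells that no gate used. The pooled neuron level was 1.39% of the astroglia-like level for Hes5, 2.61% for Notch1, 3.57% for Notch3, 6.56% for Notch2, 8.98% for Hey1 and 9.81% for Hes1. For 15 astroglial markers left out of the gates the same percentage had a median of 7.05% and ran from 1.33% to 99.9%. The 6 members just named lay inside that range and on both sides of its median. The percentage was 20.4% for Jag1, 57.2% for Dll1, 84.2% for Dll3 and 95.7% for Hes6, so that these 4 lay above the median marker. For 10 endothelial markers left out of the gates, the neuron level was 0.133% to 0.657% of the endothelial-like level. The members high in that class lay above all of these, with Notch1 at 1.85%, Jag1 at 3.52%, Hes1 at 3.63%, Notch3 at 3.95% and Hey1 at 4.56%. In a stricter gate, the 3961 neurons with no UMI of a glial, vascular or cycling gate marker, the pooled level went from 5.54 to 2.94 CPM for Notch1, from 5.51 to 2.57 CPM for Notch3, from 1.16 to 0.624 CPM for Hes1 and from 0.847 to 0.468 CPM for Hes5. These stricter levels rest on 18.8, 16.5, 4 and 3 UMIs in that order. The stricter gate held 2780 excitatory and 1114 inhibitory nuclei. Its median UMIs per nucleus ran from 1276 to 1511.5 over libraries, against 1910.5 to 2456 for all neurons of the main gate. The part of depth and of this mix in the changes was not tested. The summed astroglial markers went from 183 to 163 CPM, the endothelial markers from 13.03 to 13.3 CPM, the mural markers from 6.35 to 5.48 CPM and the cycling markers from 23.5 to 22.03 CPM. Notch2 went from 13.8 to 15.4 CPM, Hes6 from 6.58 to 9.35, Dll1 from 3.27 to 2.96, Jag1 from 3.41 to 2.49, Dll3 from 2.53 to 1.71 and Hey1 from 1.25 to 0.935 CPM. What free RNA or unseen doublets add to a neuron level was not tested.

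**Figure D3:**
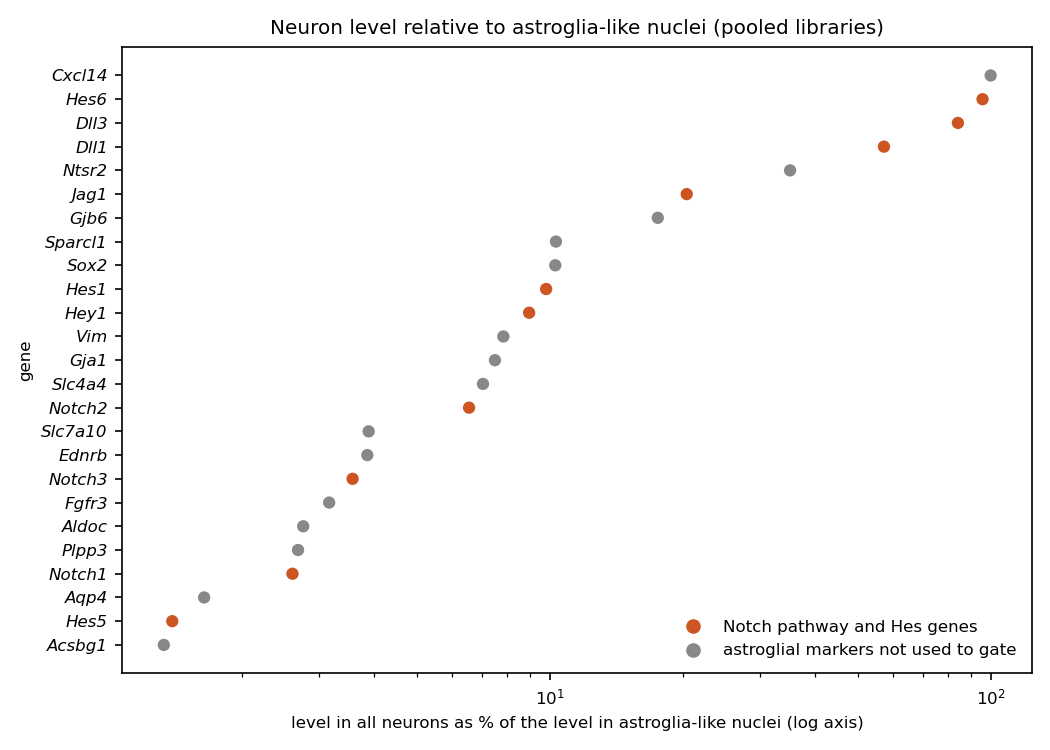
Pooled level in all neurons as a percentage of the pooled level in astroglia-like nuclei, on a log axis, for the 10 members (orange) and 15 astroglial markers not used to gate (grey). Hes5 and Notch1 lie among the lowest markers and Hes6, at 95.7%, near equality.

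Excitatory and inhibitory neurons of the same library differed in several members. Jag1 was higher in inhibitory neurons in 12 of 12 libraries, at a mean of 6.19 against 1.403 CPM and a difference of 4.79 ± 1.02 CPM (SD, n = 12). Notch2 and Notch1 were also higher there in 12 of 12 libraries, by 9.84 ± 3.21 and 3.07 ± 1.47 CPM, and Notch3 in 11 of 12, by 2.82 ± 2.34 CPM. Hes6 was lower in inhibitory neurons in 12 of 12 libraries, at 4.20 against 8.01 CPM, and so was Hes1, at 0.644 against 1.38 CPM and a difference of -0.733 ± 0.516 CPM. Dll3 was lower there in 10 of 12 libraries, by -1.01 ± 1.05 CPM. Dll1, Dll3, Hes5 and Hey1 differed by less than the SD of the difference. The summed held-out astroglial markers averaged 145 CPM in excitatory and 253 CPM in inhibitory neurons of WT libraries. Their part in these differences was not tested.

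To ask whether neurons with 1 altered copy of Myt1l held more RNA of the pathway, neuron sums were compared between genotypes. Myt1l counts pool both copies, and whether the transcript of the altered copy is kept was not tested, so its level does not check the labels. In all neurons Myt1l ran from 1402 to 1751 CPM in WT with a median of 1614, and stood at 1844, 1960.4 and 1843 CPM in Het male 1, 2 and 3 and 1798 CPM in Het female 1. All 4 libraries labelled Het thus lay above every library labelled WT, and none was lower. The same was true of 0.528% of the 17240 genes tested in all neurons. In inhibitory neurons the groups overlapped for Myt1l, with 2 of the 4 Het libraries above every WT library. Each direction given below rests on these labels. The study describes genotyping by PCR with primers for the WT and the mutant allele, also from processed nuclei. The outcome of that PCR was not among the data used here. In all neurons the log2 fold change of Myt1l was 0.19 (SE 0.06), and it was not called (edgeR adjusted p = 0.337). Its relatives Myt1, at 0.13 (SE 0.11; edgeR adjusted p = 0.706), and St18, at 0.40 (SE 0.16; edgeR adjusted p = 0.433), were not called either.

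None of the 10 members was called between genotypes in all neurons, where 0% of the 17240 genes tested were called and 1772 genes (10.3%) had an unadjusted p under 0.05. Of the members 2 had such a p, Notch3 and Hes1. The median log2 fold change was 0.10 over the members and -0.00060 over all genes, with 7 members above 0 and 3 below. The Het and WT libraries overlapped for all 10 members, and 0.771% of all genes tested had no overlap. DESeq2 called 39 genes in all neurons but gave no adjusted p for 9 of the 10 members, so it could call at most Notch2, which it did not (DESeq2 adjusted p = 0.514).

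Hes1 had the largest difference in all neurons. It ran from 0.668 to 1.37 CPM in WT, with a median of 0.927, and stood at 0.838, 1.81 and 1.79 CPM in Het male 1, 2 and 3 and 1.32 CPM in Het female 1. Het male 2 and 3 lay above every WT library and Het male 1 below the WT median, on 151 UMIs of Hes1 in all. The log2 fold change was 0.54 (SE 0.23, 95% interval 0.05 to 1.03; edgeR adjusted p = 0.464). It was 0.40 without Het male 2, 0.41 without Het male 3 and 0.74 without Het male 1. In the single neuron classes Hes1 had too few counts to test, and the means differed in direction: 0.959 ± 0.394 CPM in WT and 1.86 ± 0.534 CPM in Het in upper-layer ExN-like nuclei, on 52 UMIs, but 1.55 ± 0.595 CPM in WT and 0.725 ± 0.295 CPM in Het in deep-layer ExN-like nuclei, on 35 UMIs. The upper-layer share of nuclei was 14.5% in WT and 18.4% in Het, and the deep-layer share 12.03% and 7.41%. In all neurons the held-out endothelial markers summed to 11.6 CPM in WT and 15.3 CPM in Het, and the mural markers, of the class where Notch3 is highest, to 5.98 and 7.01 CPM. The part of these markers and shares in the Hes1 and Notch3 values was not tested.

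Notch3 ran from 4.18 to 6.98 CPM in WT neurons, with a median of 4.77, and stood at 5.45, 6.87 and 6.44 CPM in Het male 1, 2 and 3 and 6.60 CPM in Het female 1. Every Het library lay above the WT median and below WT male 2, the highest WT library. The log2 fold change was 0.33 (SE 0.13, 95% interval 0.05 to 0.61; edgeR adjusted p = 0.440), and from 0.28 to 0.41 with 1 library left out. Notch2 ran from 8.35 to 16.6 CPM in WT, with a median of 12.9, and stood at 13.2, 14.8, 17.4 and 16.1 CPM in the same order of Het libraries. Its log2 fold change of 0.24 (SE 0.14, 95% interval -0.05 to 0.53) was not called (edgeR adjusted p = 0.562). Notch1 stood at 0.20 (SE 0.19, 95% interval -0.21 to 0.61; edgeR adjusted p = 0.760), and WT male 4, at 2.00 CPM on 14 UMIs, lay far below the other WT libraries. The log2 fold change of Notch1 was 0.10 without WT male 4 and 0.05 without Het male 3.

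For the ligands and the other repressors, Jag1 had a log2 fold change of 0.02 (95% interval -0.32 to 0.36), Dll3 of 0.07 (-0.33 to 0.48) and Dll1 of -0.08 (-0.42 to 0.26). With 1 library left out the Dll1 value ran from -0.14 to -0.0030. Hey1 stood at 0.12 (-0.36 to 0.60), Hes6 at -0.09 (-0.38 to 0.21) and Hes5 at -0.28 (-0.90 to 0.33), which was -0.058 without Het male 3 and -0.42 without Het male 2. None of these intervals left out 0, and those of Hes5 and Hey1, with 110 and 162 UMIs in all neurons, also held differences of 0.5 in one direction or the other.

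**Figure D4:**
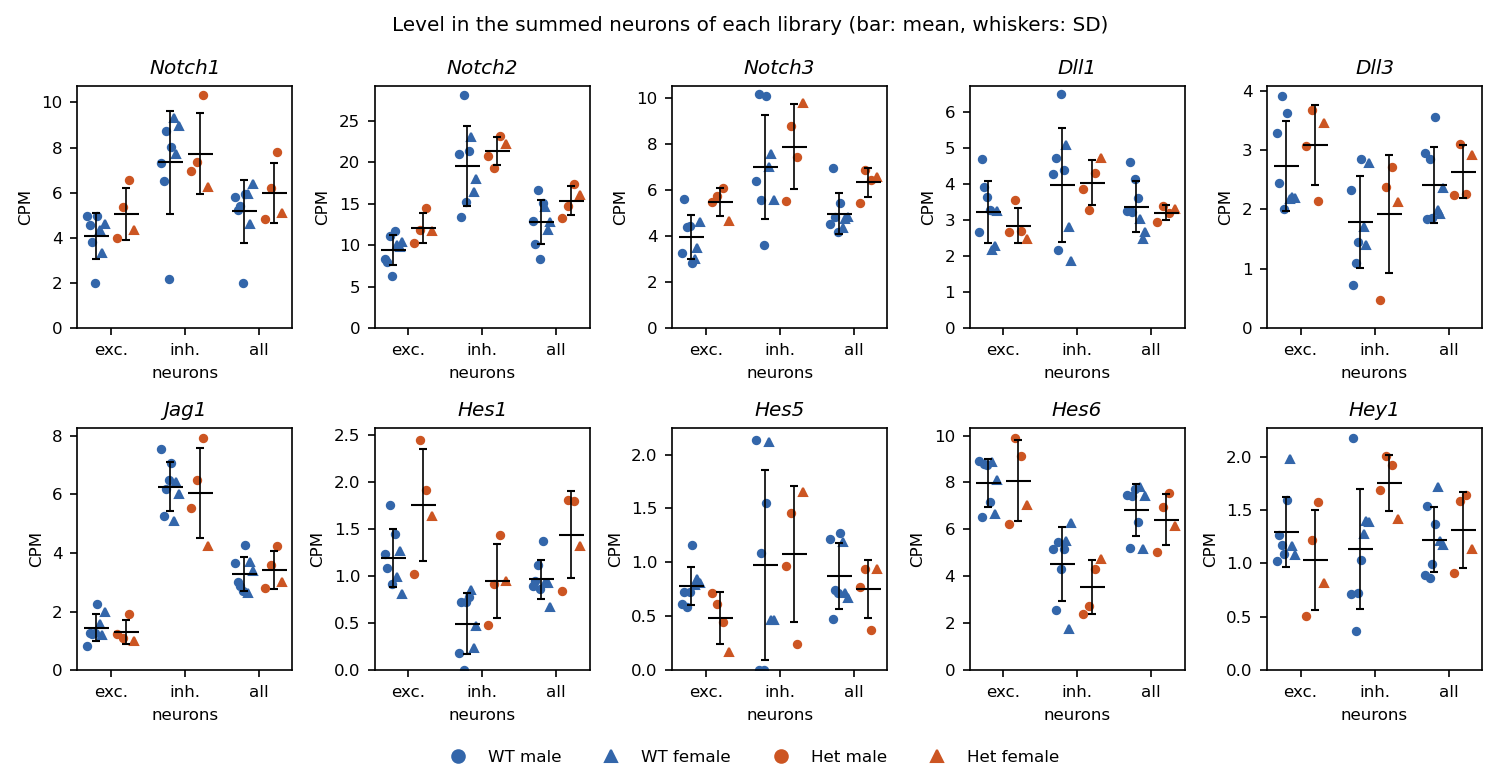
CPM of each gene in the summed excitatory, inhibitory and all neurons of each library, WT in blue and Het in orange, with circles for males, triangles for females, a bar at the mean and whiskers for the SD. The groups overlap in all neurons for every gene, and WT male 4 is the lone low point of Notch1 at 2.00 CPM.

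In excitatory neurons 8 members had enough counts to be tested and 0 were called, where 0.00663% of 15090 genes were called, that is 1 gene, Adamts6, named here after its value was seen. An unadjusted p under 0.05 was found for 1763 genes (11.7%), and for 2 of the members tested, Notch3 and Notch2. The Het and WT libraries overlapped for every member tested, and 0.868% of all genes tested had no overlap. Notch3 ran from 2.85 to 5.62 CPM in WT, with a median of 3.94, and stood at 5.47, 5.73 and 6.12 CPM in Het male 1, 2 and 3 and 4.68 CPM in Het female 1. Het male 2 and 3 lay above every WT library, and the log2 fold change was 0.51 (SE 0.17, 95% interval 0.15 to 0.87; edgeR adjusted p = 0.302). With all deposited barcodes it was 0.33. Notch2 ran from 6.28 to 11.7 CPM in WT, with a median of 9.88, and stood at 10.2, 11.8, 14.5 and 11.7 CPM in the Het libraries in the same order. Its log2 fold change was 0.34 (SE 0.14, 95% interval 0.04 to 0.65; edgeR adjusted p = 0.377). Hes1 stood at 0.51 (SE 0.25; edgeR adjusted p = 0.459) and Notch1 at 0.30 (SE 0.20; edgeR adjusted p = 0.573). The Notch1 value was 0.15 without Het male 3, 0.17 with all deposited barcodes and 0.13 with likelihood classes.

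Markers of other cells in the excitatory gate were read beside these values. The 10 held-out mural markers, cells in which Notch3 is highest, summed to 5.23 CPM in WT (4.01 to 6.54) and 6.66 CPM in Het (4.96 to 8.89; exact permutation p = 0.0707, adjusted p = 0.4 over 12 list and neuron group pairs). The 10 endothelial markers summed to 12.5 CPM in WT (9.64 to 17.6) and 15.3 CPM in Het (10.1 to 22.5), and the 15 astroglial markers to 145 CPM in WT (113 to 193) and 149 CPM in Het (111 to 196). No gene of these lists was at 0, and their part in the Notch3 and Notch2 values was not tested. In inhibitory neurons the endothelial markers summed to 9.95 CPM in WT and 15.5 CPM in Het (exact permutation p = 0.0404, adjusted p = 0.4).

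In inhibitory neurons 6 members were tested and 0 called, where 0% of 13868 genes were called and 1122 genes (8.09%) had an unadjusted p under 0.05, none of them a member. Notch1 stood at 0.01 (SE 0.20), Notch2 at 0.10 (SE 0.14) and Notch3 at 0.13 (SE 0.21) on the log2 scale, and Hes6 at -0.36 (SE 0.28; edgeR adjusted p = 0.771). With 1 library left out Notch2 ran from 0.038 (without WT male 2) to 0.19 (without WT male 3), Notch3 from 0.016 (without Het female 1) to 0.26 (without Het male 1) and Hes6 from -0.52 to -0.22, and Hes6 was -0.075 with all deposited barcodes. The share of striatal InhN-like nuclei, the class lowest in Hes6, averaged 6.30% over WT and 9.96% over Het libraries (exact permutation p = 0.0545), and that of MGE InhN-like nuclei 7.27% and 5.72%. The part of these shares in the Hes6 value was not tested. Whether the Notch3 difference itself differs between excitatory and inhibitory neurons was not tested.

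**Figure D5:**
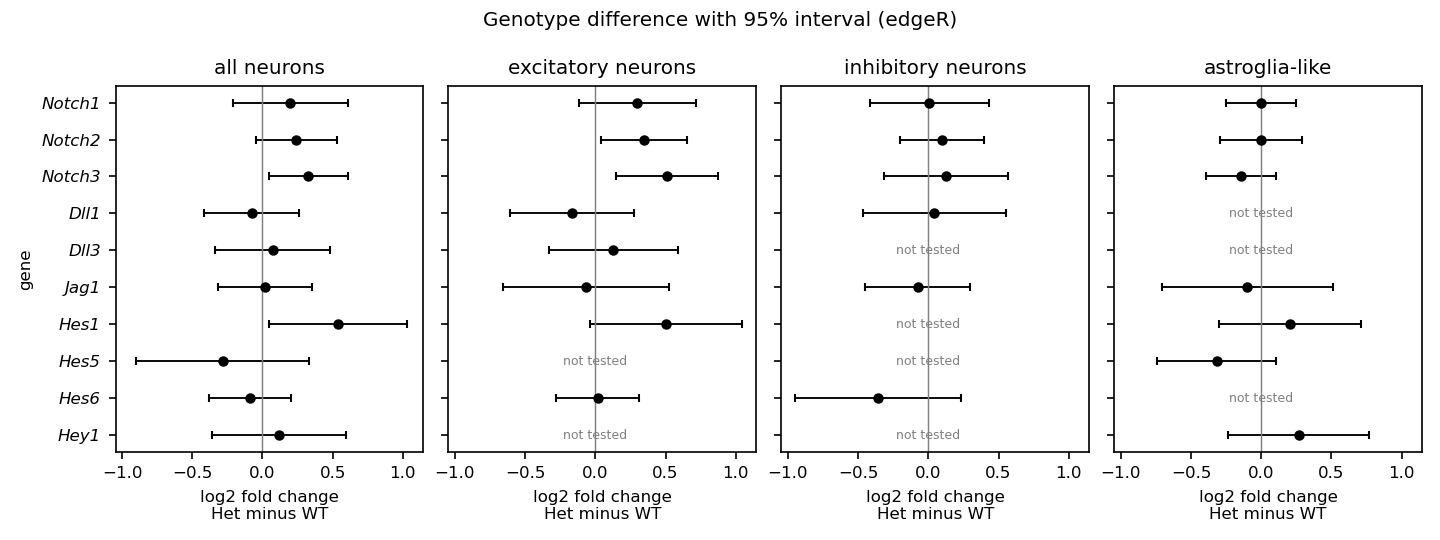
Log2 fold change, Het minus WT, of each gene with its 95% interval from edgeR in all, excitatory and inhibitory neurons and in astroglia-like nuclei; genes with too few counts are marked as not tested. Notch3 and Notch2 lie to the right of 0 in excitatory neurons, at 0.51 and 0.34, and at -0.14 and 0.00 in astroglia-like nuclei.

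Of the 16 classes, 14 had at least 1 member with enough counts, which gave 46 pairs of member and class, 0 of them called. Of all genes, 0.0286% were called in striatal InhN-like, 0.0182% in deep-layer ExN-like and 0.0101% in MGE InhN-like nuclei, and 0% in the others. In 19 of the 46 pairs the log2 fold change was above 0, and 4 had an unadjusted p under 0.05. Of all genes, 7.77% had such a p in upper-layer, 8.61% in deep-layer and 9.6% in other ExN-like nuclei, the classes of these 4 pairs. They were Notch2 at 0.50 (SE 0.14; edgeR adjusted p = 0.423) and Notch3 at 0.55 (SE 0.20; edgeR adjusted p = 0.563) in upper-layer ExN-like, Notch1 at 0.69 (SE 0.28; edgeR adjusted p = 0.468) in deep-layer ExN-like, and Notch2 at 0.66 (SE 0.26; edgeR adjusted p = 0.416) in other ExN-like nuclei. Notch2 in deep-layer ExN-like nuclei went the other way, at -0.16 (SE 0.24), with 10.1 ± 2.11 CPM in WT and 8.52 ± 4.28 CPM in Het. In astroglia-like nuclei, where the receptors are high, the mean Notch1 level was 211 ± 43.3 CPM over the 8 WT libraries and 214 ± 14.9 CPM over the 4 Het libraries (SD). Its log2 fold change of -0.00 (SE 0.12) had a 95% interval from -0.25 to 0.25. Hes5 ran from 54.7 to 126.9 CPM in WT there, with a median of 59.3, and stood at 79.9, 45.2, 46.3 and 44.4 CPM in Het male 1, 2 and 3 and Het female 1. WT male 4 alone exceeded 76.2 CPM in WT, and 3 of 4 Het libraries lay below every WT library, with a log2 fold change of -0.32 (SE 0.20; edgeR adjusted p = 0.890). The share of nuclei in a class was not called different for any of the 16 classes by an exact permutation test over libraries, with a smallest adjusted p of 0.145 and 2 classes, MGE InhN-like and choroid/ependymal-like, at an unadjusted p of 0.0182.

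Of the 69 other pathway genes, 53 were tested in all neurons and 0 were called in either direction, with 21 above 0, 32 below and a median of -0.02. The same held for 48 tested in excitatory neurons, with a median of -0.01, and 47 in inhibitory neurons, with a median of -0.02. The 5 with the smallest unadjusted p in all neurons were Numbl, a Numb-like inhibitor of Notch, at -0.23 (SE 0.06; edgeR adjusted p = 0.303), Psenen, a subunit of gamma-secretase, at -0.66 (SE 0.20; edgeR adjusted p = 0.374), Insm1, a factor of newborn neurons, at 0.48 (SE 0.16; edgeR adjusted p = 0.385), the Delta-like gene Dlk2 at -0.35 (SE 0.13; edgeR adjusted p = 0.417) and its relative Dlk1 at 1.05 (SE 0.42; edgeR adjusted p = 0.441). Insm1 is a marker of the intermediate progenitor gate, so its level in neurons was partly set by the gate. Of the lists, the other receptors and ligands had the lowest median, -0.12 over 4 genes tested, and the other Hes, Hey and partner genes the highest, 0.16 over 7.

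Levels across the 16 classes were set beside that of Myt1l, as a description. Pearson's r on log2(CPM + 1) was -0.81 for Hes1, -0.80 for Notch1 and Notch2, -0.74 for Hes5 and Jag1, -0.72 for Hey1 and -0.64 for Notch3, and -0.21 for Hes6, -0.14 for Dll1 and -0.13 for Dll3. These points share libraries, and the neuron classes share a gate.

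Among 13770 genes with enough UMIs, the gene most like Dll1 over the 16 classes was Dll3, and that most like Dll3 was Dll1, at r = 0.90. Hes5 was most like Fabp7, a fatty acid binding protein of radial glia, at r = 0.95. Fabp7 is a marker of the astroglia gate, so its profile over the classes was partly set by the gate. Notch1 was most like Rftn2 at r = 0.98. Notch2 was most like Gm42819 at r = 0.98, a gene annotated inside Notch2 on the same strand, so reads of the pair may not be told apart. Hes1 was most like Syde1 at r = 0.95, Jag1 most like Polr3a at r = 0.96, Notch3 most like Emc3 at r = 0.94, Hey1 most like Itga2 at r = 0.91 and Hes6 most like Cep76 at r = 0.88. The second in order were Pus3 for Notch1, Map7d3 for Notch2, Ptar1 for Notch3, Zfp37 for Dll1, Polr2f for Dll3, Csnk1d for Jag1, Fermt2 for Hes1, Pigf for Hes5, Ep400 for Hes6 and Eno1b for Hey1, with r from 0.86 to 0.97. These genes were picked as the highest of 13770 values of r over 16 class means. The size of a change does not enter r, and whether any pair is expressed together was not tested.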

How the data were processed

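The authors mapped reads to mm10 with ScaleRna, called nuclei against ambient RNA, and deposited expected counts (UMIs per gene and nucleus, not all whole, as where a UMI that fits several genes is divided). Divided values were 6.58% to 6.88% of entries and 0% to 1.22% of the UMIs of a member. Seurat 4.3.0 stands in the submitters' notes. The sources used here do not say how strand entered the counting, and Notch1, Notch2, Notch3, Dll1 and Hes5 overlap other annotated genes, so their counts are uncertain to that extent.

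The study's limits were applied: UMIs between 800 and 6000, genes between 300 and 3000, mitochondrial UMIs up to 1% and log(genes)/log(UMIs) from 0.9 upwards. They kept 100035 of 126684 barcodes, with 0 barcodes shared between libraries. A nucleus joined a class at a mean marker z-score of at least 0.4, a lead of 0.2 and 3 detected markers. The study removed multiplets with DoubletFinder; the sources used here do not say whether the deposited barcodes had passed it, and no doublet caller was run, but barcodes scoring for several classes were left out. Of the neurons, 3766 (7.09%) lay within 0.05 of a limit.

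Summed counts were rounded to whole numbers, since the design had assumed counts, and tested with edgeR 4.0.16 (quasi-likelihood, TMM, filterByExpr, R 4.3.3), checked on simulated data. A call needed an adjusted p under 0.05 and a log2 difference of 0.2 and was two-sided. DESeq2 1.42.0 was an alternative. Standard errors were the log2 fold change over the root of F. Gene positions are from GENCODE M21 (GRCm38), which held 54587 of the 55335 gene identifiers. Promoters are from RefSeq. Genes named are the members, the pathway genes called or with the 5 smallest p in all neurons, the 2 genes most alike each member (by r over classes, with at least 200 UMIs and 10 CPM in some class), Myt1l, Myt1 and St18. Pathway genes named from the class comparison, called or not, and Adamts6 fall outside this rule and were picked after their values were seen. The members, lists and gates were chosen with earlier results of these data known.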

Additional observations from a re-analysis of the deposited data

Results flagged for a closer look

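Levels of the 10 members were screened in 80 groups of libraries (WT or Het, in all, excitatory and inhibitory neurons and astroglia-like nuclei) for a library set apart from its group by Dixon's ratio, the gap to the nearest library over the range. Of these, 7 groups had one, where chance gives about 1 in 20, or 4.

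WT male 4 was set apart in 3 of them. Its Notch1 level was 2.00 CPM in all neurons, on 14 UMIs, with the next WT library at 4.62, and 2.16 CPM in inhibitory neurons, on 3 UMIs. Its Hes5 level in astroglia-like nuclei was 126.9 CPM, on 69 UMIs, with the next at 76.2. Without it, the log2 fold change of Notch1 was 0.10 in all neurons and -0.06 in inhibitory neurons.

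Hes5 in astroglia-like nuclei was also set apart in Het male 1, at 79.9 CPM against 46.3 CPM in the next Het library. Jag1 in astroglia-like nuclei of Het male 3 was 19.997 CPM, with the next at 15.1. Notch3 in all neurons of WT male 2 was 6.98 CPM, with the next at 5.43. Hes5 in excitatory neurons of WT male 5 was 1.16 CPM on 8 UMIs, with the next at 0.844.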

How the results depend on the processing

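No member was called between genotypes in all, excitatory or inhibitory neurons under any alternative that gave members an adjusted p, and there the smallest adjusted p of a member was 0.125 with 1 library left out and 0.277 otherwise. In the single classes the one alternative run, leaving out a library, was added after seeing the data and gave 0 calls of members. DESeq2 gave no adjusted p for 9, 10 and 9 of the 10 members in all, excitatory and inhibitory neurons, and under the strict neuron gate of 3961 nuclei no member had enough counts to be tested.

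Counts of all genes called moved with the setting. In all neurons the count was 0, and it was 39 with DESeq2, 14 with no filter on low counts, 2 with all deposited barcodes, 1 with likelihood classes, 18 with males only and 0 to 104 with 1 library left out (104 without Het female 1). In excitatory neurons the count was 1, and it was 39 with DESeq2, 46 with no filter, 7 with all barcodes, 2 with likelihood classes, 110 with males only, 2 with sex as a covariate, 0 with the strict gate, 0 without the nuclei of highest UMIs and 0 to 334 with 1 library left out (334 without Het female 1). In inhibitory neurons the count was 0, and it was 27 with DESeq2, 185 with no filter and 0 to 2 with 1 library left out. The causes were not tested.

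The replicate numbers were not taken as pairs. Correlations of deviations were -0.049, 0.155 and 0.063 for male 1, 2 and 3 and 0.272 for female 1, and 1 of 4 numbers correlated best with itself. These 4 values cannot exclude pairs. The study drew animals of this age from 4 litters. Litter is not in the labels used here and was not modelled. With the replicate block the counts were 0 in all, 0 in excitatory and 5 in inhibitory neurons, with 0 members.

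Of 212 member values under the settings other than leaving out 1 library (males only, which drops the female libraries, among them), 14 changed sign. In all neurons these were Jag1 at -0.0024 with likelihood classes and Dll3 at -0.10 with males only. In excitatory neurons they were Hes6 at -0.012 with all barcodes, -0.00053 with sex as a covariate and -0.072 with the replicate block, Jag1 at 0.041 with likelihood classes and 0.16 with the block, and Dll3 at -0.085 with males only. In inhibitory neurons they were Jag1 at 0.0077 without the nuclei of highest UMIs and 0.012 with males only, Notch3 at -0.034 and Dll1 at -0.16 with males only, and Notch1 at -0.056 and Dll1 at -0.028 with the block. Of 275 values with 1 library left out, 24 changed sign. Their ranges in all neurons were -0.031 to 0.18 for Dll3, -0.11 to 0.11 for Jag1, -0.18 to 0.019 for Hes6 and -0.0048 to 0.27 for Hey1. In excitatory neurons they were -0.10 to 0.14 for Hes6 and -0.087 to 0.019 for Jag1, and in inhibitory neurons -0.16 to 0.10 for Notch1, -0.035 to 0.14 for Dll1 and -0.22 to 0.058 for Jag1. Depth limits Hes1, Hes5 and Hey1 most, with 151, 110 and 162 UMIs in all neurons.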
